A study of Mus musculus with 9 samples.

Results

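*Trex1* and 8 other genes for enzymes that degrade, edit or repair nucleic acids were followed in lenses of mouse embryos that lacked *Mafg* or both *Mafg* and *Mafk*, which encode small Maf transcription factors. The members are *Trex1*, *Dnase2a*, *Dnase2b*, *Samhd1*, *Rnaseh2a*, *Rnaseh2b*, *Rnaseh2c*, *Adar* and *Apex1*. They were chosen by name, and each of the 9 had 1 entry among the 15820 entries that carry a gene symbol, of 22013 entries in all. Lens RNA was sequenced at E16.5, a late embryonic stage, in 3 genotypes with 3 libraries apiece, and each library pooled 8 lenses. Control lenses were *Mafg*+/-:*Mafk*+/-, so that they carried 1 knockout allele of each gene. Compound KO lenses were *Mafg*-/-:*Mafk*+/- and double KO lenses were *Mafg*-/-:*Mafk*-/-. The alleles are germline knockouts in mice kept on an ICR background, and no wild-type lenses were used here, so each comparison is with double heterozygotes. The labels call the libraries biological replicates and do not say how many embryos gave the 8 lenses of each. All levels are given as normalized CPM, which the authors obtained by dividing counts by the library total, applying 1 scaling factor per library and rounding to 1 decimal.

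Cells keep DNA and RNA from accumulating in the wrong compartment with a set of enzymes that includes these members. TREX1 is a 3′ to 5′ exonuclease that degrades DNA in the cytosol, DNase II enzymes digest DNA in lysosomes, SAMHD1 hydrolyses deoxynucleotides, RNase H2 removes ribonucleotides from DNA, ADAR edits double-stranded RNA, and APEX1 cleaves DNA at abasic sites. Loss of TREX1, SAMHD1, RNase H2 or ADAR activity is known to cause Aicardi-Goutières syndrome, in which self nucleic acids set off interferon signalling. The lens has a particular need for nucleases, since fiber cells degrade their own nuclei to become transparent, and *Dnase2b* encodes the lysosomal DNase that does so. Small Maf proteins bind DNA as homodimers or as partners of CNC and Bach proteins such as Nrf2 and Bach1.

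Of the 9 members, *Trex1* alone passed the test, and it was lower in lenses that lacked *Mafg*, whether or not *Mafk* was also lost. It stood at 25.3, 45.9 and 34.3 normalized CPM in control replicates 1, 2 and 3. In compound KO replicates 1, 2 and 3 it stood at 3.4, 6.8 and 7.3, and in double KO replicates 1, 2 and 3 it stood at 6.6, 6.9 and 6.1. Each of the 6 *Mafg*-null libraries was far below each control library, and the spread among the controls was wider than that among the double KO lenses. On average *Trex1* was at 35.2 ± 10.3 (SD, n = 3) with the control genotype, 5.83 ± 2.12 (SD, n = 3) with the compound KO genotype and 6.53 ± 0.404 (SD, n = 3) with the double KO genotype. The mean of the 6 *Mafg*-null libraries was 17.6% of the control mean. These are values of whole lenses, in which fewer cells that express a gene and less RNA per cell cannot be told apart.

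**Figure D1:**
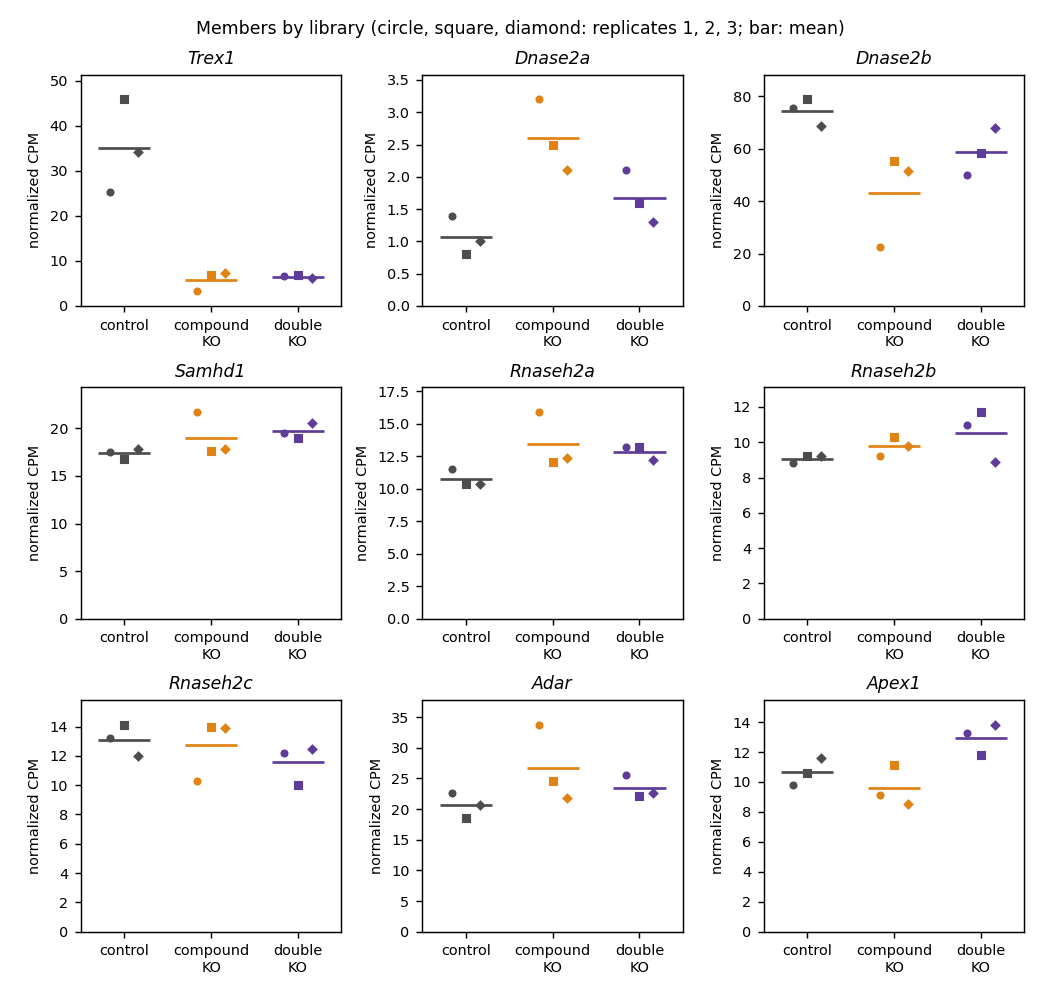
Normalized CPM (vertical axes, from 0) of the 9 members in control, compound KO and double KO lenses, with 1 point per library and a bar at the mean of 3 libraries. *Trex1* lies between 25.3 and 45.9 in the control libraries and between 3.4 and 7.3 in the other 6, while the groups of most other members lie close together.

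Differences were tested by limma with an intensity trend, after 1 was added to each value and log2 was taken, for entries that reached 1 normalized CPM in 2 or more libraries of the comparison. P-values are two-sided and adjusted over all entries tested by the Benjamini-Hochberg method. A call required an adjusted p no higher than 0.05 together with a 1.5-fold or larger change. For double KO against control lenses, *Trex1* had a log2 fold change of −2.22 (standard error 0.21, 95% confidence interval −2.76 to −1.69, adjusted p = 0.0265, limma). This was 1 of 9 members called, where 0.361% of the 14122 entries tested were called. In compound KO against control lenses it was −2.42 (95% confidence interval −3.23 to −1.60), with an adjusted p of 0.243 (limma), so that *Trex1* was not called there. That comparison called 0 of 14348 entries (0%) by limma, although 1335 of them had an unadjusted p no higher than 0.05, *Trex1* among them. With both *Mafg*-null groups together against control, it was −2.32 (standard error 0.24, adjusted p = 0.0171, limma). It was again the called member of 9, where 0.11% of 14578 entries were called. An exact permutation test of *Trex1* in these 6 against 3 libraries gave p = 0.0238, the smallest that the design allows. With 3 against 3 libraries, the smallest two-sided exact p is 0.1, and *Trex1* reached it in both single comparisons with control.

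The call between double KO and control lenses rested on few libraries. The adjusted p (limma) was 0.132 without control replicate 3, 0.115 without double KO replicate 1, 0.0953 without double KO replicate 2 and 0.102 without double KO replicate 3, while the log2 fold change stayed between −2.43 and −2.02 over the 6 fits that leave out a library. For both *Mafg*-null groups together, the adjusted p was 0.0859 without control replicate 2 and 0.0929 without control replicate 3.

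Loss of the remaining *Mafk* allele in addition to *Mafg* went with no detectable further change of *Trex1*. Double KO and compound KO libraries overlapped, with a log2 difference of 0.19 and a 95% confidence interval from −0.48 to 0.87 (adjusted p = 0.773, limma). Without compound KO replicate 1, the sign of this difference turned, at −0.10. None of the 9 members was called between these groups, where 2 of 14402 entries (0.0139%) were called by limma and 701 had an unadjusted p of at most 0.05.

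Compound KO replicate 1 stood apart from the other libraries. Its summed level of 9 lens markers was 17767, against 44505 to 62106 in the other 8 libraries. Its summed level of 8 neural retina markers was 928.5, against 31.0 to 253.8. The retina sum was also above each control library in compound KO replicates 2 and 3 (121.5 to 253.8). This difference between compound KO and control lenses thus remained without replicate 1. The retina sums of double KO libraries (42.4 to 163.8) overlapped with the controls. The sum of 9 mesenchyme and fibroblast markers was 2161.3 in compound KO replicate 1, against 177.8 to 344.0. Most of the mesenchyme sum in the controls was *Pdgfra* (156.3 to 172.2), and single markers differed in other libraries too. *Col1a1* was at 4.0 to 9.6 in control libraries and at 37.6 and 13.9 in compound KO replicates 2 and 3. In double KO replicates 1, 2 and 3, *Col1a1* was at 59.6, 5.9 and 31.0. The sums of 8 skeletal muscle and 9 endothelial markers were 331.1 and 144.5, against at most 122.1 and 76.9. Most of the endothelial sum there was *Kdr*, at 83.2, against 8.7 to 19.3 in the other libraries. *Tek*, another endothelial marker, was lowest there, at 11.6. In the controls, most of the muscle sum was *Actn2*, at 81.5 to 119.2 there and 32.2 to 50.4 in *Mafg*-null libraries. *Myod1*, *Acta1*, *Myh3*, *Myh8*, *Tnnt3* and *Ckm* were above control in each *Mafg*-null library, while *Myog* overlapped. *Myod1* (0 to 0.2 in control, 2.6 to 9.2 in *Mafg*-null libraries) was called in both comparisons that called *Trex1* (adjusted p = 0.00386 and 0.0195, limma). *Trex1* was lowest in compound KO replicate 1. Without it, the log2 fold change of *Trex1* between compound KO and control lenses was −2.13 (adjusted p = 0.132, limma), and that of both *Mafg*-null groups together was −2.19 (adjusted p = 0.00175, limma). The difference stayed above 2 log2 units in size without it. The sum of 9 erythroid markers was higher in each double KO library (2340.9 to 3882.9) than in each control library (1171.7 to 1640.9), and so moved with the comparison in which *Trex1* was called. It was 1426.9 in compound KO replicate 1 and 2060.4 to 2841.2 in compound KO replicates 2 and 3. The part of erythroid, muscle, mesenchyme or other cells in the values of *Trex1* was not tested.

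The targeted genes followed the labels. *Mafg* was at 112.9 to 134.5 normalized CPM in control libraries, and at 10.1 to 26.2 in the 6 *Mafg*-null libraries. *Mafk* was at 5.2 to 6.3 in control, 4.3 to 5.3 in compound KO and 0 to 0.6 in double KO libraries. The deleted part of either gene was not located in the entries.

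*Trex1* lies on the minus strand of chromosome 9 of GRCm39 from 108887001 to 108888802 (GENCODE). Its canonical transcript has 2 exons and 1059 bases, of which 942 are coding. The whole gene lies within the annotated span of *Atrip*, a partner of the DNA damage kinase ATR, on the same strand (108887001 to 108903228). Of 71 *Atrip* transcripts, 18 reach into *Trex1*, so reads of this stretch can be assigned to either gene, and strand does not separate them. *Shisa5*, on the other strand, shares 29 bases with the 3′ end of *Trex1*. The *Atrip* entry stood at 2.5, 3.3 and 1.2 normalized CPM in control, 1.7, 1.6 and 2.4 in compound KO and 3.0, 2.0 and 2.9 in double KO replicates 1, 2 and 3. These groups overlapped (double KO against control, log2 fold change 0.17, 95% confidence interval −0.53 to 0.86, adjusted p = 0.895, limma). How the reads of the shared stretch were divided between entries was not tested.

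Of 8 genes annotated within 50 kb of *Trex1*, 7 had an entry, and none was called in any of the 4 comparisons by limma. *Shisa5*, which encodes a membrane protein, ranged from 2.6 to 3.4 in control, 3.1 to 13.3 in compound KO and 3.1 to 5.5 in double KO libraries. *Tma7* ranged from 49.4 to 50.4, 40.2 to 47.5 and 46.3 to 50.8, and *Ccdc51* from 5.6 to 7.2, 5.4 to 8.5 and 5.6 to 6.3, in the same order of groups. *Pfkfb4*, a regulator of glycolysis, was lower in each double KO library (2.3 to 3.0) than in each control library (4.0 to 5.2), with a log2 fold change of −0.65 and an adjusted p of 0.227 (limma). *Gm7628*, a long noncoding RNA, ranged from 0.5 to 0.9 in control libraries and from 0.8 to 2.0 in the others. *Plxnb1*, a semaphorin receptor, ranged from 7.1 to 88.7 within the control libraries alone. The neighbours of *Trex1* thus did not share a decrease of its size.

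**Figure D2:**
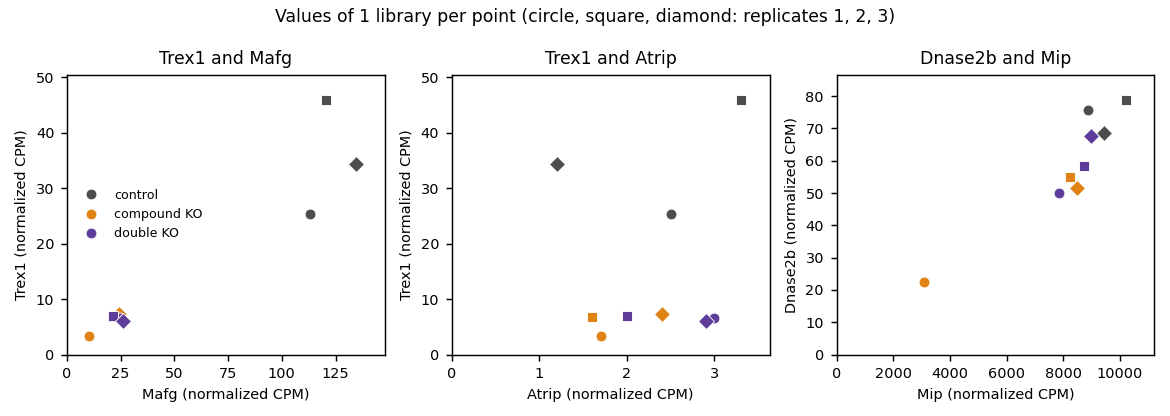
Each point is 1 library, with *Trex1* against *Mafg* (left), *Trex1* against *Atrip* (middle) and *Dnase2b* against the lens water channel gene *Mip* (right), all in normalized CPM on axes from 0. *Trex1* and *Mafg* are both high in the 3 control libraries and both low in the other 6, the *Atrip* values of the 3 groups overlap, and *Dnase2b* runs with *Mip*, with compound KO replicate 1 lowest in both.

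Promoter windows from RefSeq (GRCm38.p6), which hold 250 bases before and 50 after a gene start, were available for 8 of the 9 members, in 11 windows, and each was found once in GRCm39. Runs of them are shown for the members in which a searched motif occurred, because small Mafs and their partners are known to bind the first 2 motifs searched, and interferon-activated factors the last. The motifs TGACNNNGC (the core of the antioxidant response element), TGCTGA (Maf recognition core), TGACTCA (AP-1), TGACGTCA (CRE) and GAAANNGAA (interferon-stimulated response element core) were searched on both strands. They occur in 12.4%, 19.5%, 5.2%, 1.79% and 8.56% of the 32851 windows of this length, in that order. Both *Trex1* windows held TGCTGA, 1 of them on the opposite strand. In the lines that follow, each run of 30 bases is written 5′ to 3′ on the strand of its gene, with the motif in capitals.
Trex1 upstream start, chr9:108888811-108888840, minus strand: aactgcacttccTGCTGAgaacacaagctt
Trex1 downstream start, chr9:108888387-108888416, minus strand: gagggaggagcgTCAGCAcgagggccaggc
Dnase2a, chr8:85635349-85635378, plus strand: ctgaatctcgTGACCCGGCtgtccccgggt
Rnaseh2a, chr8:85692851-85692880, minus strand: gcttgcaaagTGACCCTGCccaccctccat
Rnaseh2a, chr8:85692696-85692725, minus strand: cgagccgattggTCAGCAtcaagagccact
Adar, chr3:89637775-89637804, plus strand: gGAAAAGGAActtcctcacagggcggagag
Adar, chr3:89638045-89638074, plus strand: ttttcaaggaaacGAAAGTGAActctgggg
The motif of the upstream *Trex1* run begins 37 bases before the gene start that its window was built on, in noncoding exon sequence of *Atrip*. That of the downstream run begins 85 bases before its start, in an intron of 1 *Trex1* transcript and in noncoding exon sequence of 11 *Atrip* transcripts. The *Dnase2a* run and both *Rnaseh2a* runs lie in noncoding exon sequence of their own genes. The first *Adar* run is intronic and the second overlaps an *Adar* exon. The windows of *Dnase2b*, *Samhd1*, *Rnaseh2c* and *Apex1* held none of these letters. A match is a description of the letters, not of binding.

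The 5 genes whose pattern over the 9 libraries was most like that of *Trex1*, among 8845 entries with a mean of at least 10 in 1 group, were *Psmb3* (Pearson's r = 0.98), *Slain1* (0.98), *Mafg* (0.98), *Dnmt3a* (0.97) and *Nsfl1c* (0.97). *Dnmt3a*, a DNA methyltransferase, ranged from 64.9 to 80.7 in control, 35.8 to 42.8 in compound KO and 42.7 to 46.6 in double KO libraries. *Psmb3*, a proteasome subunit, ranged from 69.9 to 78.6, 49.4 to 56.4 and 52.2 to 59.0 in the same order, and *Slain1*, a microtubule regulator, from 31.0 to 32.4, 23.1 to 26.8 and 24.5 to 25.0. *Nsfl1c*, a cofactor of the ATPase p97, ranged from 78.7 to 85.5, 63.6 to 71.4 and 70.1 to 73.5. All 5 separated the *Mafg*-null libraries from the controls, as *Trex1* did, but *Mafg* alone of them was called (both *Mafg*-null groups against control, log2 fold change −2.53, adjusted p = 0.0171, limma). Such correlations rest on the step between genotypes that the libraries share.

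The lysosomal DNases differed from control in opposite directions, and neither passed the test. *Dnase2b*, the DNase of lens fiber denucleation, lies on chromosome 3 from 146286738 to 146321351. It stood at 75.6, 78.8 and 68.6 normalized CPM in control, 22.6, 55.1 and 51.4 in compound KO and 50, 58.3 and 67.8 in double KO replicates 1, 2 and 3. Each *Mafg*-null library was below each control library, the nearest pair being 67.8 and 68.6. The means were 74.3 ± 5.22 (SD, n = 3) in control, 43.0 ± 17.8 (SD, n = 3) in compound KO and 58.7 ± 8.91 (SD, n = 3) in the double KO. The log2 fold change was −0.34 between double KO and control lenses (95% confidence interval −0.65 to −0.04, adjusted p = 0.443, limma) and −0.87 between compound KO and control lenses (95% confidence interval −1.73 to −0.02, adjusted p = 0.481, limma). Without compound KO replicate 1, the latter was −0.47 (adjusted p = 0.222, limma). For both *Mafg*-null groups together it was −0.61 (adjusted p = 0.688, limma), with an exact permutation p of 0.0238 that was not adjusted for the number of genes.

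*Dnase2b* varied together with other lens genes. Its values correlated across the 9 libraries with those of *Mip* (Pearson's r = 0.96), the lens membrane protein gene *Lim2* (0.95) and the crystallin gene *Crybb1* (0.95). Compound KO replicate 1 was lowest in each, with *Mip* at 3102.7 there and at 7835.2 to 10197.1 in the other libraries. How far these correlations rest on that library was not tested. The low values there were not limited to fiber cell genes. *Cdh1*, which encodes the epithelial marker E-cadherin, was at 79.9 there, against 153.4 to 239.2 in the other libraries. *Pax6*, another of the lens markers, was highest there, at 162.7. The 9 lens markers together, of 10 listed, summed to between 49838 and 62106 in control, 17767 and 47665 in compound KO and 44505 and 51996 in double KO libraries, with none at 0. In ratios chosen after seeing the data, *Dnase2b* per 1000 of *Mip* was 8.51, 7.73 and 7.26 in control, 7.28, 6.70 and 6.05 in compound KO and 6.38, 6.68 and 7.54 in double KO replicates 1, 2 and 3. On this scale the groups overlapped (double KO against control, log2 difference −0.19, exact permutation p = 0.2; compound KO against control, −0.23, exact permutation p = 0.2). Per *Lim2*, the *Mafg*-null libraries remained below the controls, by a log2 difference of −0.27 (exact permutation p = 0.0238). Per *Crybb1* it was −0.20, with overlap (exact permutation p = 0.143). Per *Bfsp1*, a beaded filament gene that was itself lower, the direction turned, with a log2 difference of 0.34 for both *Mafg*-null groups against control (exact permutation p = 0.0238).

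The 5 entries most like *Dnase2b* over the 9 libraries were *Aldoc* (Pearson's r = 0.99), *Megf9* (0.99), *Pkp2* (0.99), *Mboat2* (0.99) and *Rcan2* (0.99). *Aldoc*, a glycolytic aldolase, ranged from 76.6 to 77.7 in control, 29.1 to 56.8 in compound KO and 56.3 to 70.8 in double KO libraries. *Pkp2*, a desmosomal protein gene, ranged from 67.5 to 77.6, 27.1 to 54.0 and 53.4 to 60.0 in the same order. *Megf9* ranged from 302.4 to 321.9, 138.9 to 263.4 and 250.6 to 291.6, *Rcan2* from 103.1 to 125.2, 44.3 to 80.0 and 79.6 to 99.9, and *Mboat2* from 41.2 to 43.8, 28.0 to 37.5 and 38.2 to 40.8. Like *Dnase2b*, each was lowest in compound KO replicate 1, and none was called by limma in any comparison.

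*Dnase2a*, the lysosomal DNase of macrophages and most other cells, lies on chromosome 8 from 85635189 to 85649544 and had the lowest values of the members. It stood at 1.4, 0.8 and 1.0 normalized CPM in control, 3.2, 2.5 and 2.1 in compound KO and 2.1, 1.6 and 1.3 in double KO replicates 1, 2 and 3. Each compound KO library was above each control library, while double KO and control libraries overlapped. Between compound KO and control lenses, the log2 fold change was 0.80 (95% confidence interval 0.33 to 1.27, adjusted p = 0.481, limma). In double KO against control lenses it was 0.37 (95% confidence interval −0.06 to 0.79, adjusted p = 0.568, limma). Of 14 listed macrophage markers, 12 had an entry and none was at 0 in every library. Their summed level was 19.3 to 24.8 in control, 38.7 to 49.7 in compound KO and 14.2 to 27.0 in double KO libraries. It was thus higher in the compound KO libraries, as *Dnase2a* was, and its part in the values of *Dnase2a* was not tested.

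RNase H2 is made of a catalytic subunit, encoded by *Rnaseh2a*, and 2 others, encoded by *Rnaseh2b* and *Rnaseh2c*. *Rnaseh2a* (chromosome 8, 85683232 to 85696408) stood at 11.5, 10.4 and 10.4 normalized CPM in control, 15.9, 12.1 and 12.4 in compound KO and 13.2, 13.2 and 12.2 in double KO replicates 1, 2 and 3. All 6 *Mafg*-null libraries were above the controls. The log2 fold change of both groups together was 0.26 (95% confidence interval 0.03 to 0.49, adjusted p = 0.619, limma, exact permutation p = 0.0238), which is under the 1.5-fold threshold. *Rnaseh2b* (chromosome 14, 62530038 to 62630559) stood at 8.8, 9.2 and 9.2 in control, 9.2, 10.3 and 9.8 in compound KO and 11.0, 11.7 and 8.9 in double KO replicates 1, 2 and 3. *Rnaseh2c* (chromosome 19, 5651868 to 5657526) stood at 13.2, 14.1 and 12.0, at 10.3, 14.0 and 13.9, and at 12.2, 10 and 12.5 in the same order. Both overlapped between groups. The log2 fold change in double KO against control lenses was 0.19 for *Rnaseh2b* (95% confidence interval −0.10 to 0.48) and −0.17 for *Rnaseh2c* (95% confidence interval −0.46 to 0.12). None of the 3 subunit genes was called in any comparison.

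*Samhd1*, which encodes the deoxynucleotide triphosphohydrolase, lies on chromosome 2 from 156939453 to 156977187. It stood at 17.5, 16.8 and 17.8 normalized CPM in control, 21.7, 17.6 and 17.8 in compound KO and 19.5, 19.0 and 20.6 in double KO replicates 1, 2 and 3. Each double KO library was above each control library, by a log2 fold change of 0.17 (95% confidence interval 0.01 to 0.34, adjusted p = 0.479, limma), while compound KO libraries overlapped with both. Its spread among the controls, 17.4 ± 0.513 (SD, n = 3), was small beside that among the compound KO lenses, 19.0 ± 2.31 (SD, n = 3).

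*Adar*, on chromosome 3 from 89622329 to 89660753, encodes the enzyme that turns adenosine into inosine in double-stranded RNA. Its values were 22.7, 18.5 and 20.7 normalized CPM in control, 33.7, 24.6 and 21.8 in compound KO and 25.5, 22.1 and 22.6 in double KO replicates 1, 2 and 3. The groups overlapped, and the log2 fold change of both *Mafg*-null groups against control was 0.26 (95% confidence interval −0.06 to 0.58, adjusted p = 0.697, limma). Compound KO replicate 1 held the highest value of *Adar*, *Rnaseh2a*, *Samhd1* and *Dnase2a* and the lowest of *Trex1* and *Dnase2b* in the 9 libraries. Without this library, the log2 fold change of *Adar* between compound KO and control lenses was 0.16, and that of *Samhd1* was 0.03, in place of 0.34 and 0.12.

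*Apex1*, which encodes the main abasic site endonuclease of base excision repair and lies on chromosome 14 from 51162177 to 51164642, was the member with higher values in double KO lenses than in both other groups, though without a call. It stood at 9.8, 10.6 and 11.6 normalized CPM in control, 9.1, 11.1 and 8.5 in compound KO and 13.3, 11.8 and 13.8 in double KO replicates 1, 2 and 3. Each double KO library was above each library of the other groups. The log2 difference was 0.26 against control (95% confidence interval 0.01 to 0.51, adjusted p = 0.485, limma) and 0.41 against compound KO (95% confidence interval 0.05 to 0.76, adjusted p = 0.665, limma). Neither passed the test.

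**Figure D3:**
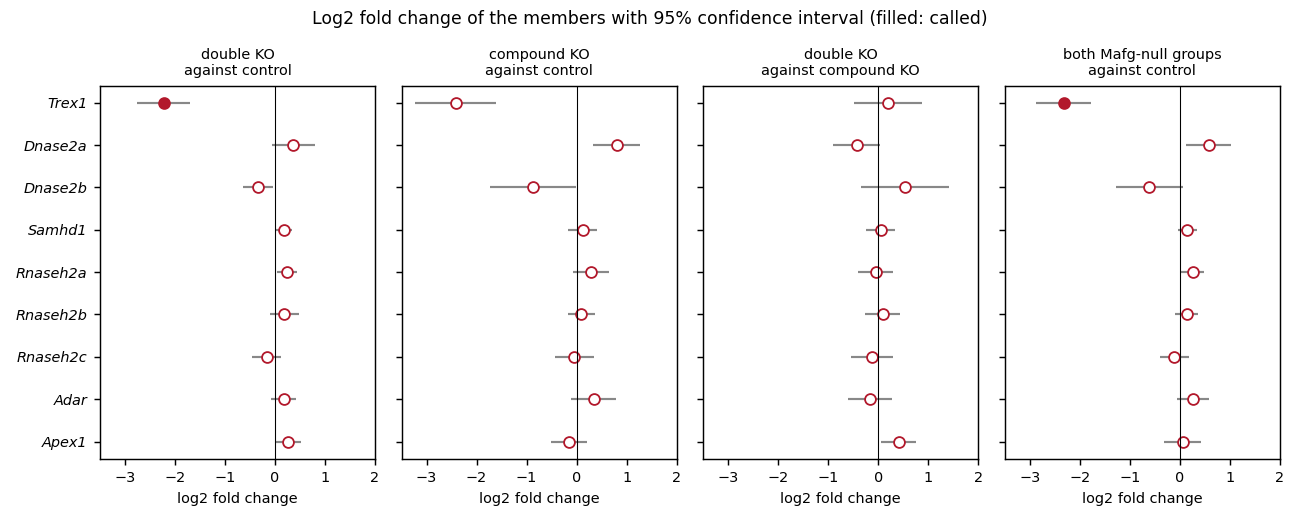
Log2 fold change (horizontal axes) of the 9 members in 4 comparisons, with 95% confidence intervals from limma and filled points for called members. The *Trex1* point lies at −2.22, −2.42 and −2.32 in the 3 comparisons with control and is filled in the first and last of them, while the other members lie between −0.87 and 0.80.

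Several members separated 2 groups, and of these *Trex1* alone was called. Between double KO and control lenses, 3 of 9 members were higher in each library and 2 were lower in each, where 7.78% and 8.04% of the 14122 entries were so. Between compound KO and control lenses, 2 were higher and 2 lower, where 12.2% and 11.7% of the 14348 entries were so. For both *Mafg*-null groups against control, 1 was higher and 2 were lower, where 2.68% and 4.27% of the 14578 entries were so. Between double KO and compound KO lenses, *Apex1* was higher and no member was lower, where 8.17% and 7.39% of the 14402 entries were so. The median log2 fold change of the members was 0.175 between double KO and control lenses and 0.096 between compound KO and control lenses, beside 0.011 and 0.0163 over all entries tested. These comparisons share libraries, so their values stand side by side and do not support each other.

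Levels of different genes were compared per kilobase of the canonical transcript (GENCODE), with the limit that the transcript behind each entry is not given in the table. In control lenses, *Trex1* had 33.2 ± 9.75 normalized CPM per kb (SD, n = 3) and *Dnase2b* had 27.7 ± 1.94, which do not differ beyond their spread. *Rnaseh2c* (9.48 ± 0.762) and *Apex1* (8.19 ± 0.692) followed, then *Rnaseh2b* (5.98 ± 0.152) and *Samhd1* (4.42 ± 0.131). *Rnaseh2a* (3.57 ± 0.210) and *Adar* (3.55 ± 0.362) were alike within their spread, and *Dnase2a* was at 0.546 ± 0.156. In compound KO and double KO lenses, *Dnase2b* was the first, at 16 ± 6.62 and 21.8 ± 3.31 per kb. *Trex1* was the fifth by mean in both, at 5.51 ± 2.00 and 6.17 ± 0.382. Near it were *Rnaseh2b* (6.45 ± 0.364 and 6.95 ± 0.962) and *Samhd1* (4.85 ± 0.588 and 5.02 ± 0.208). In compound KO lenses *Trex1* did not differ from either of them beyond its spread, and in double KO lenses not from *Rnaseh2b*. Per kb, *Trex1* thus stood near *Dnase2b* in control lenses and near *Rnaseh2b* and *Samhd1* in both KO groups.

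Genes of the pathways around the members were listed by name in 10 lists, and 141 genes of them had an entry. In double KO against control lenses, 1 gene of these lists was called, *Cdk1*, and no gene was called in the other 3 comparisons (limma). TREX1 and APEX1 are both known members of the SET complex. The genes of their 5 listed partners had median log2 fold changes of 0.045 (double KO) and 0.0675 (compound KO) against control, and none was called. *Hmgb2*, an HMG box protein of that complex, stood at 21.0, 16.4 and 18.5 normalized CPM in control and 23.8, 21.9 and 21.8 in double KO replicates 1, 2 and 3, with a log2 fold change of 0.26 (adjusted p = 0.486, limma), and at 69.7 in compound KO replicate 1.

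Of the other exonucleases and DNases listed, none was called. Of 22 listed genes, 18 had an entry and 17 were tested between double KO and control lenses, with no call, a median log2 fold change of 0.0357 and 0 genes lower in each double KO library, where 8.04% of all entries were so. *Mre11a* and *Rad50*, of the double-strand break nuclease complex, had log2 fold changes of 0.11 and 0.11, and *Dnase1l2*, a DNase I relative at values from 1.1 to 1.9, had 0.29 (adjusted p = 0.445, limma). The listed genes without an entry under their symbol were *Trex2*, *Dnase1*, *Dnase1l3* and *Tatdn1*. Of 12 genes for ribonucleases and RNA editing, 11 were tested in this comparison, with a median of 0.137 and no call. *Exosc10*, a nuclear exosome nuclease, was at 39.9 to 43.9 in control and 44.5 to 48.6 in double KO libraries, with a log2 fold change of 0.14 (adjusted p = 0.542, limma). *Dis3*, another exosome nuclease, named after its values were seen, stood between 19.2 and 23.2 in 7 libraries and was listed at 0.0 in double KO replicates 2 and 3.

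Most genes known to sense self nucleic acids, or to respond when they accumulate, had low values in all groups. Of 18 genes of nucleic acid sensing, 11 had an entry, and 7 of these stayed below 3 normalized CPM in each of the 9 libraries. Of 36 interferon-stimulated genes, 19 had an entry and 15 of them stayed below 3 in each library, so that 8 were tested between double KO and control lenses and 11 between compound KO and control lenses. No gene passed, and the medians were 0.129 and 0.474 on the log2 scale, with smallest adjusted p-values of 0.364 and 0.481 (limma). *Mx2*, an antiviral GTPase, stood at 0.3, 0.6 and 0.3 in control, 0.1, 1.0 and 1.2 in compound KO and 0.8, 1.9 and 1.2 in double KO replicates 1, 2 and 3. *Ifitm3*, which blocks viral entry, stood at 1.3, 1.3 and 1.2, at 3.0, 2.0 and 1.6, and at 1.6, 2.5 and 2.2 in the same order, above control in each *Mafg*-null library (both groups, log2 fold change 0.46, adjusted p = 0.565, limma). At such values the pseudocount of 1 draws log2 fold changes towards 0, and changes of these genes could be missed. *Isg15* and *Ifit3b*, named after their values were seen, did not reach 1 in control or double KO libraries and were not tested between them. *Isg15* was at 0 to 0.1 in control and 0.5 to 0.8 in double KO libraries, and *Ifit3b* at 0.6 to 0.9 and 0.5 to 0.7. The summed macrophage markers, higher in the compound KO libraries as given above, moved with the median of 0.474, and their part in it was not tested.

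Of the genes of interferon receptor signalling, none was called. *Stat2* stood at 9.2, 8.4 and 8.1 normalized CPM in control, 15.7, 11.9 and 10 in compound KO and 10.8, 11.4 and 9.8 in double KO replicates 1, 2 and 3. It was above control in each *Mafg*-null library (both groups, log2 fold change 0.38, 95% confidence interval 0.06 to 0.71, adjusted p = 0.61, limma). Against control, the 8 tested genes had in double KO lenses a median log2 fold change of 0.133.

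**Figure D4:**
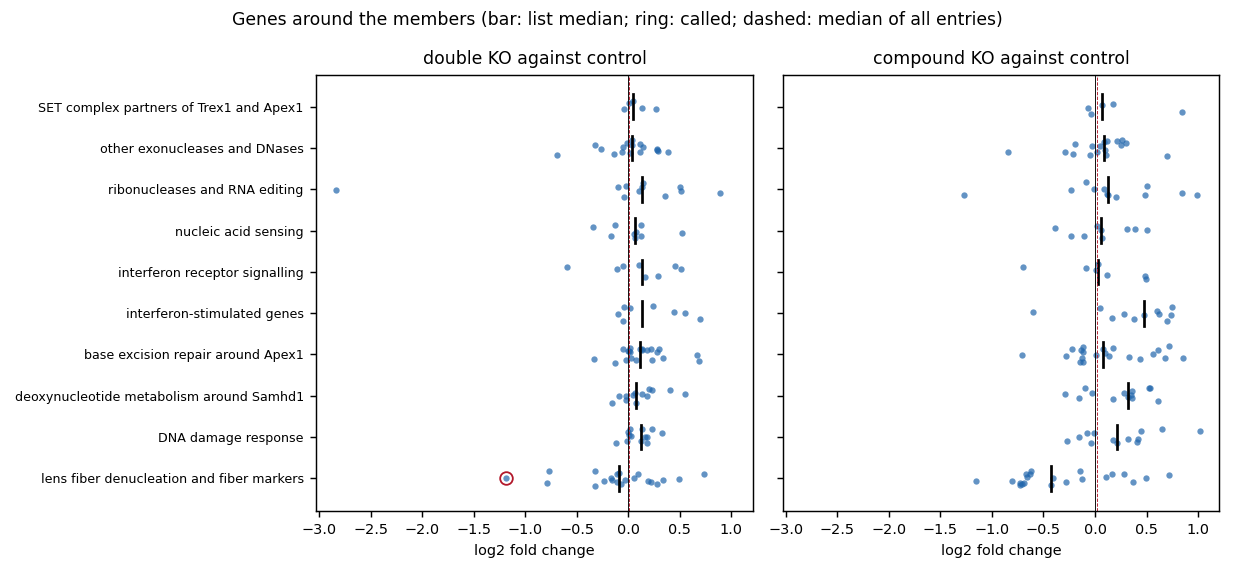
Log2 fold change (horizontal axes) of the tested genes of the 10 lists between double KO and control (left) and compound KO and control lenses (right), with 1 point per gene, a black bar at the list median and a ring around the 1 called gene. Most points lie near the median of all entries (dashed), the ringed *Cdk1* lies at −1.19, and the median of the fiber list lies at −0.0906 on the left and −0.432 on the right.

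Base excision repair, in which APEX1 acts, and deoxynucleotide metabolism, in which SAMHD1 acts, gave no calls. All 21 listed repair genes were tested, and 4 were above control in each double KO library and 0 below, where 7.78% and 8.04% of all entries were so, with a median log2 fold change of 0.111. In compound KO against control lenses, 4 were higher and 4 lower in each library, where 12.2% and 11.7% were so, with a median of 0.0786. *Lig1*, a DNA ligase, stood at 28.3, 26.1 and 27.5 normalized CPM in control, 68.0, 36.4 and 37.8 in compound KO and 37.7, 33.4 and 33.2 in double KO replicates 1, 2 and 3 (double KO against control, log2 fold change 0.34, adjusted p = 0.242, limma). *Pcna*, the sliding clamp, was at 26.5 to 38.3 in control, 38.0 to 88.7 in compound KO and 39.3 to 41.7 in double KO libraries. *Mpg*, a DNA glycosylase, was at 6.0 to 7.2, 8.8 to 10.4 and 7.3 to 9.5 in the same order. Of 14 genes of deoxynucleotide metabolism, 13 were tested, with a median of 0.0722 (double KO) and 0.319 (compound KO). *Tk1*, thymidine kinase, was at 8.9 to 10.8 in control, 11.8 to 14.7 in compound KO and 11.0 to 11.8 in double KO libraries.

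The DNA damage response was covered by 13 genes, with 0 calls and, in double KO against control lenses, a median log2 fold change of 0.120. *Atm*, a damage kinase, was at 24.9 to 27.8 normalized CPM in control, 28.1 to 34.0 in compound KO and 28.7 to 34.7 in double KO libraries (both *Mafg*-null groups, log2 fold change 0.22, adjusted p = 0.631, limma). *Rpa2*, which binds single-stranded DNA, was at 18.1 to 20.8 in control, 22.4 to 35.1 in compound KO and 20.9 to 24.6 in double KO libraries. *Topbp1*, an activator of ATR, was at 40.7 to 44.2, 47.6 to 80.0 and 45.0 to 50.3 in the same order. *Cdkn1a*, a target of p53 that was named after its values were seen, stood at 1.7, 1.7 and 2.6 in control, 10.8, 3.7 and 2.9 in compound KO and 1.3, 1.4 and 5.1 in double KO replicates 1, 2 and 3. Each of its compound KO libraries was above each control library (log2 fold change 1.01, 95% confidence interval −0.09 to 2.12, adjusted p = 0.481, limma), while its double KO and control libraries overlapped. Against control, 6 of the 13 genes were higher in each compound KO library and 1 was lower, with a median log2 fold change of 0.217, where 12.2% and 11.7% of all entries were so. In double KO lenses these counts were 3 and 1, where the shares were 7.78% and 8.04%. Compound KO replicate 1 held the highest values of *Rpa2* (35.1), *Topbp1* (80.0) and *Cdkn1a* (10.8). *Rad17*, named after its values were seen, was lowest there, at 22.9. The part of other cells of this library in the compound KO counts was not tested.

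The list of fiber denucleation and fiber markers held the 1 called gene. *Cdk1*, a cell cycle kinase with a known role in the breakdown of the nuclear envelope of fiber cells, stood at 24.8, 20 and 23.5 normalized CPM in control, 27.8, 11.0 and 27.4 in compound KO and 10.7, 9.3 and 8.3 in double KO replicates 1, 2 and 3. In double KO against control lenses it was lower by a log2 fold change of −1.19 (adjusted p = 0.0375, limma). The adjusted p (limma) was between 0.065 and 0.165 in each of the 6 fits without a single library, 0.105 with equal library totals and 0.535 in one fit of all 9 libraries, so that this call does not hold under those settings. In compound KO lenses, 1 library was near the double KO values and the others were near the controls. *Bfsp1* stood at 4539.3, 5520.2 and 4519.0 in control, 1292.4, 2829.9 and 2828.6 in compound KO and 2604.0, 2681.6 and 3266.6 in double KO replicates 1, 2 and 3 (double KO against control, log2 fold change −0.77, adjusted p = 0.131, limma). It was called for both *Mafg*-null groups against control without compound KO replicate 1 (log2 fold change −0.77, adjusted p = 0.0189, limma), and between double KO and control lenses with equal library totals (adjusted p = 0.0471, limma). *Gja3*, a lens connexin, was at 10 to 10.5 in control, 6.2 to 8.6 in compound KO and 3.0 to 7.7 in double KO libraries (double KO against control, log2 fold change −0.78, adjusted p = 0.484, limma). Of the 21 tested genes of this list, 3 were lower in each *Mafg*-null library than in each control library, as *Dnase2b* was, and 0 were higher, where 4.27% and 2.68% of all entries were so. Taken by group, 4 were lower and 0 higher in each double KO library (8.04% and 7.78% of all entries), and 11 were lower and 2 higher in each compound KO library (11.7% and 12.2%).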

How the data were processed

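Values of 9 libraries of mouse lenses at E16.5 were grouped by the labelled genotypes. Reads from stranded paired-end libraries were mapped by the authors to mm39 (HISAT2), counted per transcript (StringTie) and filtered for low CPM (edgeR). The deposited values are a signal normalized by the authors, CPM multiplied by 1 factor per library. Library sums ranged from 728036.1 to 1131184, entries without a symbol (not tested) held 25.0% to 35.5% of them, and the depth behind the values is unknown, so no counting intervals are given. The members, the lists and the tests were chosen with earlier results of these data known.

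limma 3.58.1 (R 4.3.3) was used with a pseudocount of 1 and an intensity trend, for 3 pairs of groups and for both *Mafg*-null groups against control, and exact permutation tests (two-sided) were used for single members. Named beside the members were list genes called in any comparison, the 3 genes per list that differed most in double KO from control lenses among those whose libraries did not overlap and whose mean reached 1 in a group, the 5 entries most like *Trex1* and *Dnase2b*, neighbours of *Trex1*, and *Mafg* and *Mafk*. *Cdkn1a*, *Dis3*, *Isg15*, *Ifit3b*, *Rad17* and the single muscle, mesenchyme, endothelial and lens markers were named after their values were seen. A gene that this rule names is not reported here. The test was tested on simulated data. Alternatives were upper quartile scaling, equal library totals, no filter, a filter that requires 1 normalized CPM throughout, a single fit for the 3 groups, a replicate block, a pseudocount of 0.1, no intensity trend and each library left out. Other steps used scipy 1.17.1, pandas 2.3.3, numpy 2.4.6, Python 3.11.15 and, for figures, matplotlib 3.10.9. Positions come from GENCODE M39 on GRCm39, and promoter windows from RefSeq.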

Additional observations from a re-analysis of the deposited data

Results flagged for a closer look

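In 3 members, 1 of the 6 *Mafg*-null libraries lay far from the other 5 by Dixon's test, which chance does in about 1 of 20 groups. In each case it was compound KO replicate 1, the library with few lens and many retina and mesenchyme markers, and the part of these in the values was not tested. *Trex1* was at 3.4 normalized CPM there, and at least 6.1 in the other 5 libraries. *Rnaseh2a* was at 15.9, and at most 13.2 in the others. *Adar* was at 33.7, and at most 25.5 in the others. The gap to the nearest library was 0.692, 0.711 and 0.689 of the range of the 6 libraries. *Dnase2b*, with compound KO replicate 1 lowest at 22.6, had a gap of 0.606 of its range, which is under the limit of the test.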

How the results depend on the processing

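The log2 fold changes of the 9 members in the 4 comparisons were computed in 285 fits under the alternatives other than leaving out a library, and 278 of these kept their direction and their side of the threshold. *Trex1* lost its call with the replicate block between double KO and control lenses (log2 fold change −2.22, adjusted p = 0.167, limma) and for both *Mafg*-null groups against control (−2.32, adjusted p = 0.0601, limma), where 0 members were then called. Libraries with the same number correlated by −0.106 to 0.216 after removal of group means, 2 of 9 pairs by over 0.1. The labels name no batch, and with 3 libraries per group these correlations cannot show whether the number stands for one. The block lowered the calls over all entries from 51 to 10 and from 16 to 0.

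In fits without a library, *Trex1* ranged from −2.43 to −2.02 (double KO against control), from −2.63 to −2.13 (compound KO against control), from −2.53 to −2.11 (both groups) and from −0.10 to 0.36 (double KO against compound KO, the sign turning without compound KO replicate 1). The members called then ranged from 0 to 1 in both comparisons that called *Trex1*. The list genes called ranged from 0 to 1 between double KO and control lenses, between the KO groups (*Dis3* without double KO replicate 1) and for both groups (*Bfsp1* without compound KO replicate 1), and were 0 with one fit of all 9 libraries and with the replicate block between double KO and control lenses. Signs of uncalled members also turned for *Rnaseh2c* (−0.12 to 0.0872, compound KO against control), *Rnaseh2a* (−0.12 to 0.0649) and *Adar* (−0.29 to 0.0116, double KO against compound KO) and *Apex1* (−0.002 to 0.13, both groups).

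Equal library totals moved the median log2 fold change of all entries from 0.0163 to 0.244 between compound KO and control lenses, from −0.00525 to −0.172 between the KO groups and from 0.0182 to 0.164 for both groups. There, signs turned for *Rnaseh2c* (0.19 in compound KO and 0.0434 in both groups against control), *Apex1* (0.0874, compound KO against control), *Samhd1* (−0.13) and *Rnaseh2b* (−0.0781, double KO against compound KO), of which none was called. Per *Bfsp1*, chosen after seeing the data, the difference of *Dnase2b* from control was 0.42 in double KO, 0.26 in compound KO and 0.34 in both groups. Over all entries, calls between double KO and control lenses were 21 in one fit of all 9 libraries, and between compound KO and control lenses they were 13 without compound KO replicate 1, in place of 0. For both groups they were 71 without compound KO replicate 1, 0 without control replicate 3 and 25 with equal library totals. The cause was not tested.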

Other observations

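Some entries of genes on the lists or near *Trex1* differed between libraries of 1 group by more than between groups. *Plxnb1*, a neighbour of *Trex1*, stood at 7.1, 7.5 and 88.7 normalized CPM in control, 13.6, 65.7 and 90.6 in compound KO and 84.7, 74.2 and 23.3 in double KO replicates 1, 2 and 3. *Tyk2*, a kinase of the interferon receptor, stood at 0.3, 0.9 and 20.5, at 0.0, 0.8 and 0.0, and at 4.3, 0.2 and 20.5 in the same order. *Adarb1*, a second RNA editing enzyme gene, stood at 2.4, 26.4 and 25.9 in the control libraries and at 14.8 to 22.3 in the others. *Pld3*, which encodes a lysosomal exonuclease, stood at 34.0, 41.6 and 132.7 in control, 42.8, 53.2 and 13.5 in compound KO and 71.6, 46.0 and 32.9 in double KO replicates 1, 2 and 3. The entries are at transcript level, 6193 of them carry no symbol, and whether reads of these genes or of *Trex1* stand in such an entry was not tested.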
